A study of Mus musculus with 9 samples.

Results

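The Snail, Zeb and Twist genes were followed on 9 Affymetrix expression arrays of NIH 3T3 cells, an established line of mouse embryonic fibroblasts. They are 6 genes, Snai1, Snai2, Zeb1, Zeb2, Twist1 and Twist2, out of 18194 genes that the array names. Their members are the 14 probe sets to which the platform annotation gives 1 symbol only, that symbol being one of the 6, out of 34958 probe sets with 1 symbol. A probe set is a group of short probes that together give 1 value per array, and several probe sets can report the same gene. Snai1, Twist1 and Twist2 have 1 probe set each, Snai2 has 2, Zeb1 has 4 and Zeb2 has 5.

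All cells were starved of serum and received cycloheximide, which blocks translation, at 3 µg/ml for 2 h, controls included. The 3 control arrays come from cells with no actin drug, and a vehicle for them is not given in the sources used here. A second group of 3 received cytochalasin D at 2 µM for 90 min. The remaining 3 arrays, called the double-drug group here, carry the agent label latrunculin B and cytochalasin D, at 5 µM and 2 µM for 90 min, although their titles name latrunculin B alone. The label and the series design were followed. The series is about genes under the control of monomeric actin (G-actin), and the arrays of a condition are described as independent biological replicates, numbered 1, 3 and 7. Further details of the line are not given in the sources used here.

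The 6 genes encode transcriptional repressors that are best known from the epithelial-to-mesenchymal transition, in which cells lose their junctions and gain a fibroblast-like shape. Snai1 (Snail) and Snai2 (Slug) are zinc finger proteins that bind E-boxes, short DNA motifs read CANNTG, and repress genes such as Cdh1, the epithelial cadherin. Zeb1 and Zeb2 carry zinc finger clusters around a homeodomain and bind similar motifs, and Twist1 and Twist2 are basic helix-loop-helix proteins that act as dimers with E proteins. Fibroblasts are mesenchymal cells and commonly express members of all these families. Cytochalasin D releases the SRF coactivator MRTF from G-actin, whereas latrunculin B keeps MRTF bound to it.

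The median intensity of an array lay between 7.57 and 7.84. Of 10 fibroblast markers, 8 lay above an intensity of 100 on all 9 arrays, among them Col1a1 (6088 to 8840), while Lum and Fap did not (5.02 to 5.2 and 4.81 to 4.91). The summed fibroblast markers ranged from 84562 to 90763 in controls, from 81953 to 87720 with cytochalasin D and from 84755 to 87659 in the double-drug group. None of 9 epithelial, 5 leukocyte or 4 endothelial markers reached 100 on any array, and Cdh1 lay between 7.94 and 10.2. Summed epithelial markers ranged from 55.5 to 60.3 in controls, 55.5 to 55.6 with cytochalasin D and 55.5 to 56.4 with both drugs. The leukocyte sums were 64.6 to 65.4, 65 to 70.2 and 65.3 to 66.1, and the endothelial sums 18.3 to 18.7, 18.4 to 18.5 and 18.4 to 19, in the same order of groups. As a check of the drugs, Srf, which encodes serum response factor, rose from 187 ± 30.9 in controls to 1475 ± 311 with cytochalasin D and 827 ± 164 in the double-drug group (SD, n = 3; limma adjusted p = 0.00191 and 0.0393). The first of these calls held with any 1 array left out, and the second ended whichever array was left out (adjusted p from 0.0591 to 0.186). Acta2, the other check gene, was not called in the double-drug group against control (log2 change 1.02, limma adjusted p = 0.167). Cytochalasin D against the double-drug group did not pass for Srf (0.82, limma adjusted p = 0.504) or Acta2 (1.06, 0.147). With the replicate number as a block in the fit, the limma adjusted p was 0.055 and 0.0871. Acta2 had means of 4960 ± 1177 in controls, 20609 ± 1262 with cytochalasin D and 9912 ± 1118 with both drugs (SD, n = 3). Both means were lower with latrunculin B added, but at the threshold of 0.05 the check does not show an effect of latrunculin B for these genes.

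Of the 14 probe sets, 11 were tested, because they lay above the 40th percentile of their own array on at least 3 arrays, and all 11 did so on all 9. The 3 others were dim everywhere. The Zeb1 probe set 1420243_at ranged from 4.46 to 4.59, and the Zeb2 probe sets 1454200_at and 1458941_at ranged from 5.2 to 5.3 and from 3.39 to 4.57. They give no information on the drugs beyond these levels. Intensities are on a linear scale and were tested as log2(intensity + 16), so that a log2 change understates the change of a dim probe set.

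The first comparison asks what cytochalasin D did to these messages in 90 min while translation was blocked. Both Snail genes fell: Snai1 to 41.6% of its control mean, and Snai2 to 62.1% and 63.7% at its 2 probe sets. The remaining 8 tested probe sets, of Zeb1, Zeb2, Twist1 and Twist2, did not pass the test. Thus 3 of 11 tested probe sets, for 2 of the 6 genes, were called lower and 0 higher, at an adjusted p under 0.05 in limma. Over all 27010 probe sets tested, 1.57% were called in this comparison and 0.422% were called lower. These shares depend on the filter and on the fit. With a filter at the 60th percentile, 123 of 18143 probe sets tested were called lower. With the replicate number as a block in the fit, 418 of 27010 were called lower and 626 higher, and the calls among the 11 did not change. The median log2 change of the 11 was −0.18, beside 0 for all probe sets tested. In RNA of whole cultures, fewer cells with a message and less of it per cell cannot be told apart.

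Snai1 (probe set 1448742_at) read 253.8, 284.9 and 300.5 on control replicates 1, 3 and 7. With cytochalasin D it read 148.5, 85.38 and 115.2 on the replicates of the same numbers. With both drugs it read 211.6, 183.7 and 149.7. Every control value lay above every drug value, and the lowest double-drug array (149.7) lay just above the highest cytochalasin D array (148.5). The group means were 280 ± 23.8, 116 ± 31.6 and 182 ± 31 (SD, n = 3). Cytochalasin D against control gave a log2 change of −1.18 (SE 0.19, 95% interval −1.64 to −0.73, limma adjusted p = 0.0386). The change was negative in 3 of 3 pairs of the same replicate number, at −0.71, −1.57 and −1.27. Among all 27010 probe sets, 22 had a change this low or lower, Snai1 included. The call ended without any one array other than cytochalasin D replicate 1. Its adjusted p was 0.0756, 0.14 and 0.139 without control replicates 1, 3 and 7, 0.0826 and 0.108 without cytochalasin D replicates 3 and 7, and 0.0626, 0.0917 and 0.0585 without double-drug replicates 1, 3 and 7. It also ended with no filter on dim probe sets (0.0801) and when only the arrays of these 2 groups were fitted (0.145).

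Snai1 is on chromosome 2 (GRCm38.p6), where RefSeq places the 250 bases before its start at chr2:167537945-167538194 on the plus strand. Those of Twist1, at chr12:33957421-33957670, and of Twist2, at chr1:91801211-91801460, both on the plus strand, are shown beside them because these genes did not pass the test. Promoters of 4 members were matched in the RefSeq table, and Snai2, the other gene called, was not among them. With 1 called gene, these windows cannot show whether a motif goes with the calls. Capitals mark each E-box (CANNTG), searched on both strands, which for this motif read alike.
Snai1: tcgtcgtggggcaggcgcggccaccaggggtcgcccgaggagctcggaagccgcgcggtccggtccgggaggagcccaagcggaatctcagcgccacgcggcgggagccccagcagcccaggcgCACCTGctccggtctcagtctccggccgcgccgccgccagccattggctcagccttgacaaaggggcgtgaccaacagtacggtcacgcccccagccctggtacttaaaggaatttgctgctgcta
Twist1: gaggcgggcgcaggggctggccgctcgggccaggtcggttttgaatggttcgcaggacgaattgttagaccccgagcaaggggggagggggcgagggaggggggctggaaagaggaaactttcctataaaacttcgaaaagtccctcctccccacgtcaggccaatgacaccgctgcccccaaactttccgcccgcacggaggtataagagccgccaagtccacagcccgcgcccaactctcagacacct
Twist2: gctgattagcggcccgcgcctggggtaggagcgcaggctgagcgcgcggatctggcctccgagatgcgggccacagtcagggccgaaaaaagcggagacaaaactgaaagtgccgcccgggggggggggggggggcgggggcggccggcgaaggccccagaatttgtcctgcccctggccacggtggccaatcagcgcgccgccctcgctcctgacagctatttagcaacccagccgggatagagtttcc
The Snai1 window holds 1 E-box, CACCTG, which starts 126 bases before the start site, and the windows of Twist1 and Twist2 hold none. CACCTG is a form of E-box that Snail proteins are known to bind, and human SNAI1 protein is known to bind E-boxes of its own promoter. Of 32851 windows of this length in the RefSeq table, 66.2% hold a CANNTG and 17.2% a CACCTG or its reverse complement CAGGTG, which is a subset of the first. Zeb2 has 4 listed starts, and none of their windows holds a CANNTG. The CArG box, to which SRF binds, was found in none of the windows of Snai1, Twist1, Twist2 or Zeb2, and in 1.47% of all. GGAATG or its reverse complement CATTCC, a motif of TEAD factors, was found in 1 window of Zeb2, 157 bases before the start, and in 12.6% of all. These are matches of letters, and binding was not measured.

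Snai2 was measured by 2 probe sets with like results. Probe set 1418673_at read 3785, 3940 and 3841 on control replicates 1, 3 and 7. It read 2100, 2575 and 2510 with cytochalasin D, and 2794, 3037 and 2779 with both drugs. The 3 groups did not overlap, and controls were the highest and cytochalasin D the lowest. The log2 change with cytochalasin D was −0.69 (SE 0.08, 95% interval −0.88 to −0.5, limma adjusted p = 0.00927), and it was negative in 3 of 3 pairs of the same number. The call ended without control replicate 3 (adjusted p = 0.0501) and when only these 2 groups were fitted (0.0756).

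The other Snai2 probe set, 1447643_x_at, carries the suffix that Affymetrix gives to probe sets whose probes can also bind other transcripts. It read 10848, 13259 and 12393 in controls, 7956, 7409 and 7869 with cytochalasin D, and 8144, 9184 and 9317 with both drugs. Again the groups did not overlap and came in the same order. Its log2 change with cytochalasin D was −0.65 (SE 0.08, 95% interval −0.85 to −0.45, limma adjusted p = 0.0155). Its call ended when control replicate 3 or 7 was left out, with an adjusted p of 0.0536 and 0.0734. It ended likewise when cytochalasin D replicate 3 or 7 was left out (0.0778 and 0.0524), and when only these 2 groups were fitted (0.0803). Both probe sets report 1 gene and are not independent evidence of its fall.

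**Figure D1:**
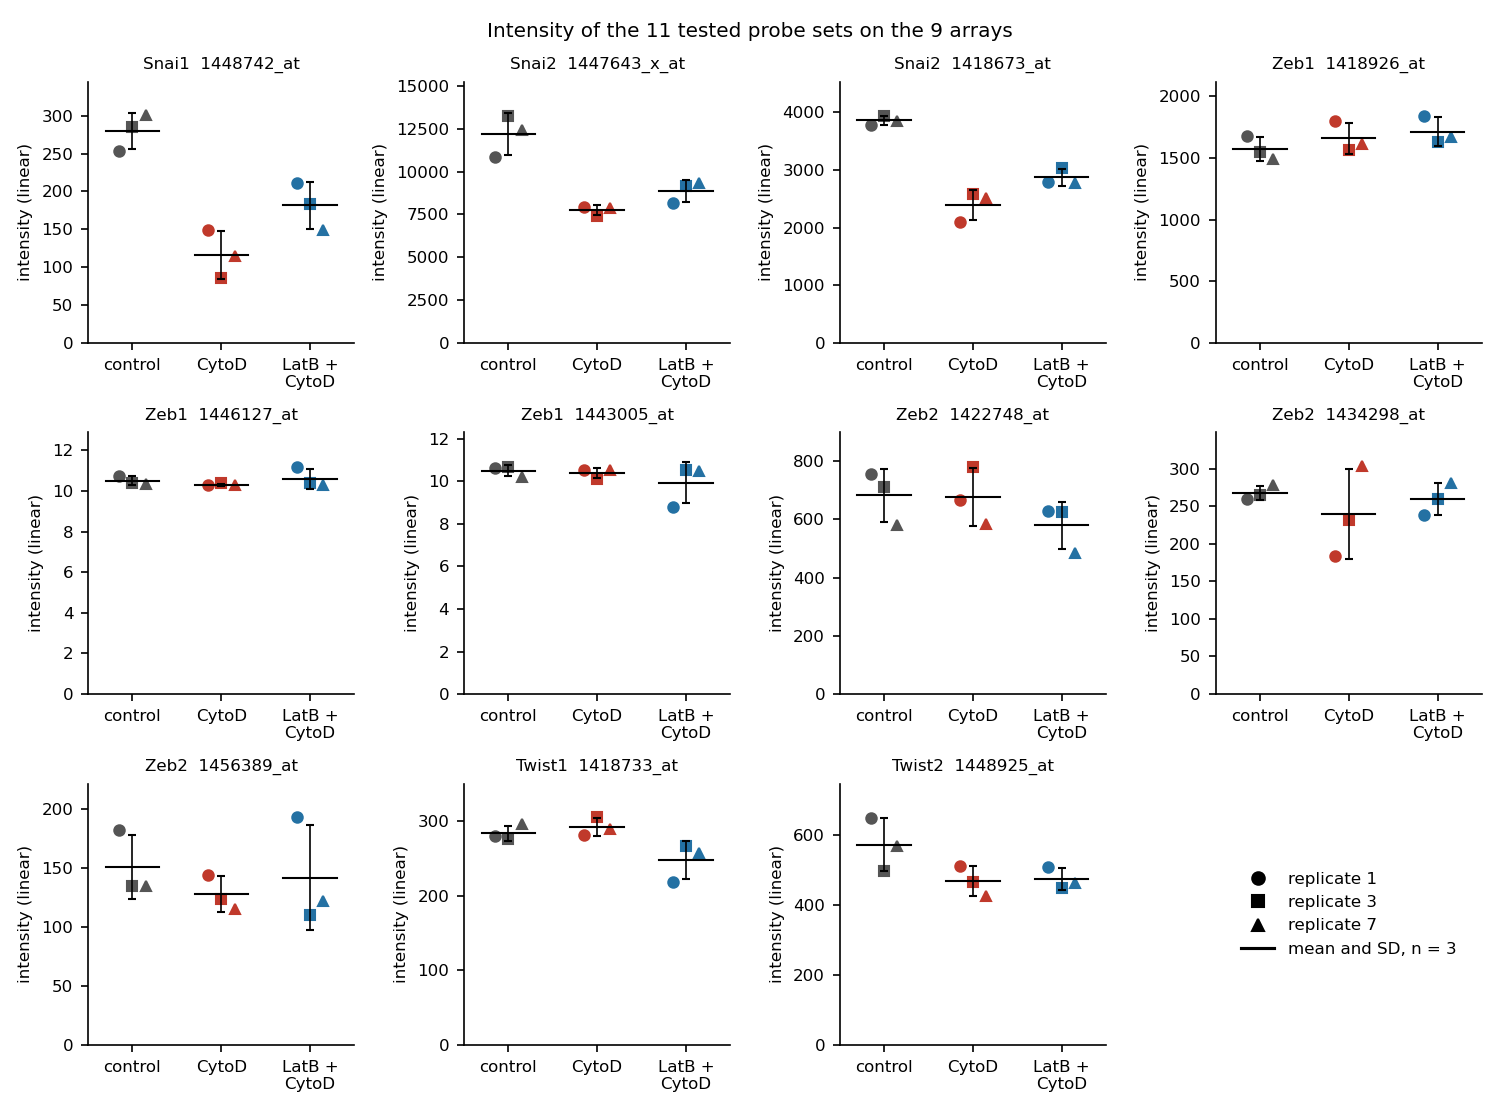
Intensity (linear axis from 0) of the 11 tested probe sets on the 9 arrays. Points are arrays, shaped by replicate number, and lines with bars are the mean and SD of 3 arrays. The Snai1 panel and both Snai2 panels show controls highest, cytochalasin D lowest and the double-drug arrays between, with no overlap, and the Zeb1, Zeb2 and Twist2 panels show overlapping groups.

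All 3 Snail probe sets thus had controls, double-drug arrays and cytochalasin D in this order from high to low with no overlap. Among all probe sets tested, 113, or 0.418%, had this order, and 3 of the 11 tested here had it. That share is over dim and bright probe sets alike, since the 40th percentile of an array lay between 6.16 and 6.35. Taken one pair of groups at a time, cytochalasin D lay below control on all arrays for 3 of the 11, beside 6.45% of all probe sets tested.

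Zeb1 was measured well by 1 probe set, 1418926_at. It read 1676, 1551 and 1489 in controls, 1803, 1562 and 1616 with cytochalasin D, and 1844, 1626 and 1668 with both drugs. The groups overlapped, and replicate 1 was the highest array in each. The log2 change with cytochalasin D was 0.08 (95% interval −0.1 to 0.25, limma adjusted p = 0.893). The other 2 tested Zeb1 probe sets, 1446127_at and 1443005_at, lay between 10.3 and 11.2 and between 8.82 and 10.7 on all arrays. Their changes were −0.01 each (95% intervals −0.05 to 0.03 and −0.07 to 0.06). At these intensities the added 16 shrinks any change, but with 1 added in its place they were −0.02 and −0.01.

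The 3 tested probe sets of Zeb2 did not move alike across the arrays. Probe set 1422748_at read 754.2, 709.8 and 580.5 in controls, 666.4, 780.6 and 582.9 with cytochalasin D, and 628.7, 623.8 and 486 with both drugs. Its groups overlapped, and replicate 7 was the lowest array of each. Probe set 1434298_at ran from 259.7 to 277.9 in controls, from 183.4 to 303.3 with cytochalasin D and from 238.3 to 281.3 with both drugs, so that the cytochalasin D arrays enclosed all others. Probe set 1456389_at ran from 135.2 to 182.1, from 115.3 to 144.7 and from 110.4 to 193.2 in the same order of groups. The log2 changes with cytochalasin D were −0.01 (95% interval −0.38 to 0.36), −0.18 (−0.56 to 0.2) and −0.21 (−0.7 to 0.29), with limma adjusted p of 1, 0.874 and 0.911. Each interval spans 0, and changes of either sign within it cannot be told from none at this number of arrays.

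Twist1 read 280.3, 276.9 and 296.1 in controls, 281.4, 305.5 and 290.3 with cytochalasin D, and 218.5, 266.5 and 258 with both drugs. Controls and cytochalasin D overlapped, with a log2 change of 0.04 (95% interval −0.13 to 0.21, limma adjusted p = 1). Twist2 read 649, 498 and 568.6 in controls, 509.7, 465.9 and 424 with cytochalasin D, and 508.7, 447.4 and 462.8 with both drugs. Here 1 cytochalasin D array lay above the lowest control. The change was −0.28 (SE 0.11, 95% interval −0.54 to −0.02) and negative in 3 of 3 pairs, but it did not pass the test (limma adjusted p = 0.43).

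**Figure D2:**
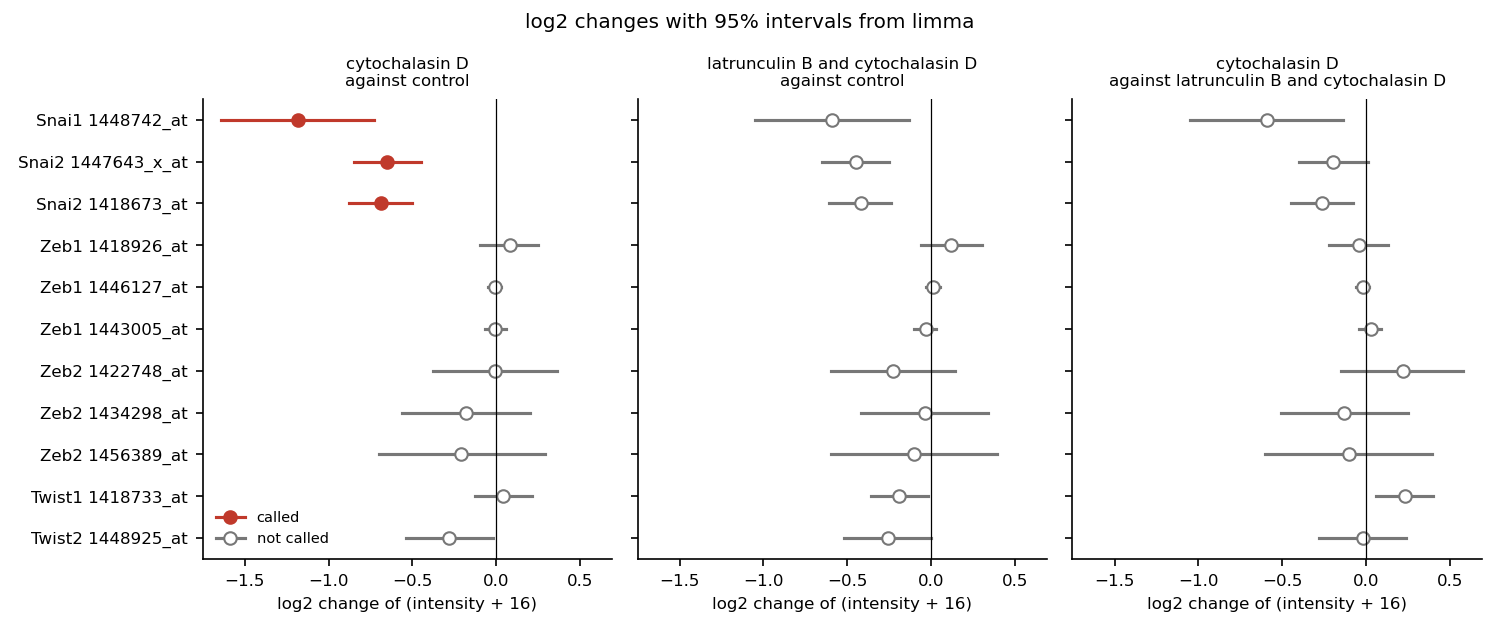
log2 changes of (intensity + 16) for the 11 tested probe sets in the 3 comparisons, with 95% intervals from limma. Filled points passed the test, and they are the Snai1 probe set at −1.18 and the Snai2 probe sets at −0.65 and −0.69, all in cytochalasin D against control.

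The second comparison sets the double-drug group against control. None of the 11 probe sets passed limma's test, and 0.111% of all probe sets tested were called. At an unadjusted p under 0.05 there were 5 of the 11, beside 5.28% of all probe sets tested (1425). Snai1 had 64.9% of its control mean, a log2 change of −0.59 (SE 0.19, 95% interval −1.05 to −0.13, limma adjusted p = 0.699). Snai2 had 74.4% and 73% at 1418673_at and 1447643_x_at, changes of −0.42 (95% interval −0.61 to −0.24, adjusted p = 0.182) and −0.45 (−0.65 to −0.25, adjusted p = 0.186). The other 2 with an unadjusted p under 0.05 were Twist1, with a change of −0.19 (−0.36 to −0.02, adjusted p = 0.842), and Twist2, with one of −0.26 (−0.52 to 0). Double-drug arrays lay below all controls for Snai1, both Snai2 probe sets and Twist1, which is 4 of 11, beside 3.99% of all probe sets tested. Zeb1 (1418926_at) had a change of 0.12 (−0.06 to 0.3), and the Zeb2 probe sets had −0.23, −0.04 and −0.1 in the order given above, with groups that overlapped. The count over all probe sets tested was 30, or 123 with the replicate number as a block, and with that block none of the 11 passed either.

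The last comparison sets cytochalasin D alone against both drugs and so asks what latrunculin B added. None of the 11 passed limma's test, and 0.259% of all probe sets tested were called. Of these 67 were higher and 3 lower with cytochalasin D alone. With the replicate number as a block 84 were higher and 15 lower, and none of the 11 passed either. At an unadjusted p under 0.05 there were 3 of the 11, beside 4.22% of all probe sets tested (1141). Snai1 with cytochalasin D had 64% of its double-drug mean, a log2 change of −0.59 (95% interval −1.05 to −0.14, limma adjusted p = 0.833). Snai2 had changes of −0.26 (−0.45 to −0.08, adjusted p = 0.727) at 1418673_at and −0.2 (−0.4 to 0.01, adjusted p = 1) at 1447643_x_at. All 3 lay lower with cytochalasin D on all arrays, as did 3.33% of all probe sets tested, and in 3 of 3 pairs of the same number. Twist1 lay the other way: it was higher with cytochalasin D on all arrays, by 0.23 (95% interval 0.06 to 0.4, adjusted p = 0.791). In either direction the groups lay apart for 4 of the 11, beside 6.26% of all probe sets tested. That the Snail genes fell with cytochalasin D alone and did not pass the test with both drugs does not show that the 2 states differ, and this comparison, which tests it, did not pass. Each pair of the 3 comparisons shares the arrays of 1 group.

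**Figure D3:**
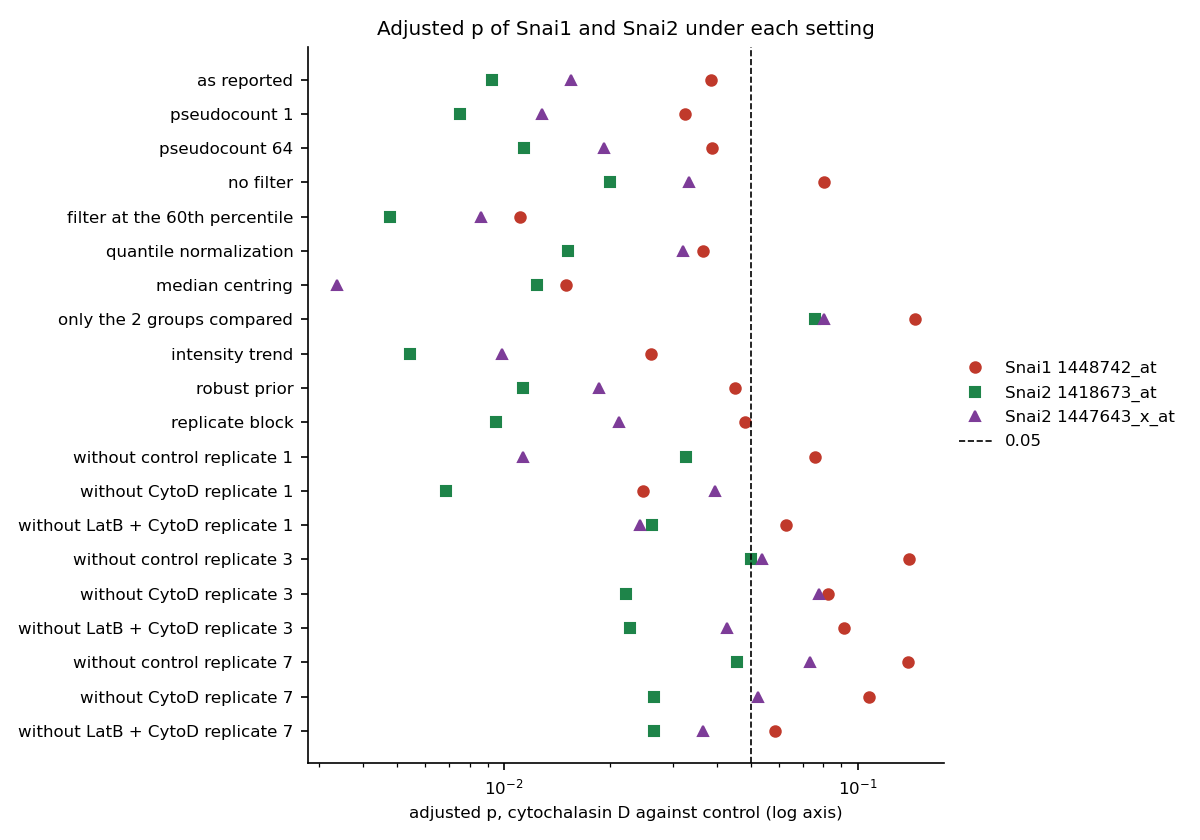
Adjusted p of cytochalasin D against control (log axis) for the Snai1 probe set and both Snai2 probe sets, as reported and under each other setting or with 1 array left out. The dashed line is 0.05. Snai1 lies between 0.0111 and 0.145 and is under the line in 1 of 9 fits with 1 array left out. Snai2 1418673_at crosses the line in the fit on the 2 groups compared (0.0756) and, at 0.0501, without control replicate 3. Snai2 1447643_x_at crosses it in the fit on the 2 groups too. With 1 array left out, that probe set is under the line in 5 of 9 fits and reaches 0.0778.

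Genes around the 6 repressors were followed in lists, with 1 probe set per gene, in the order of their roles. The first list held 17 tested ligands, receptors, transducers and inhibitors of pathways that are known to induce the repressors. None was called in the first comparison (limma), with 3 higher and 2 lower at an unadjusted p under 0.05. Of all probe sets tested, 10.2% (2752) had such a p in this comparison. The median log2 change of the 17 was 0.05. Hif1a, the oxygen-regulated factor, went from 5000 ± 146 to 6411 ± 588 (SD, n = 3), a change of 0.35 (limma adjusted p = 0.0885). With the replicate block Hif1a was called (limma adjusted p = 0.0328), as was the Notch ligand Jag1 (0.21, adjusted p = 0.00875). Stat3, the transducer of interleukin 6, had 888 ± 264 and 1479 ± 55 (0.76, adjusted p = 0.186), and Smad7, the inhibitor of TGF-beta signalling, 313 ± 13.2 and 231 ± 41.7 (−0.43, adjusted p = 0.216). Tgfbr1, a TGF-beta receptor, had a change of 0.3 (adjusted p = 0.382).

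Of 17 corepressors and dimer partners, 1 rose and 0 fell with cytochalasin D, with a median change of −0.04. The one was Prmt5, an arginine methyltransferase that Snail recruits, from 446 ± 30.1 to 566 ± 9.42 (SD, n = 3), a change of 0.34 (limma adjusted p = 0.0319). This call held in 1 of 9 fits with 1 array left out, the one without control replicate 7, and the adjusted p ran from 0.037 to 0.128 over the 9. Ajuba, a LIM protein that binds Snail and bridges it to corepressors, had 1203 ± 161 in controls and 832 ± 32.6 with cytochalasin D (−0.52, adjusted p = 0.0737). Limd1, of the same LIM family, and the corepressor Rcor1 had changes of −0.15 and −0.21 (adjusted p = 0.563 and 0.734). The 4 Id genes, whose products sequester the E protein partners of Twist, were not called, nor did any have an unadjusted p under 0.05, and Id1 to Id3 had SDs between 112 and 586 on means between 1156 and 2216 in these 2 groups. Their changes were −0.37, −0.33 and −0.03, and that of Id4 was 0.47. None of 13 genes for the turnover of Snail proteins was called or had an unadjusted p under 0.05. The ubiquitin ligase subunits Btrc, Fbxw11 and Fbxl5 had changes of −0.1, −0.08 and −0.12, and the kinase Prkd1 one of −0.23.

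On the side of the targets, epithelial genes known to be repressed gave little to measure. Of 26 such genes 11 were tested, none was called or had an unadjusted p under 0.05, and their median change was 0. Cdh1 had 9.36 ± 0.788 in control arrays and 8.37 ± 0.386 after cytochalasin D (SD, n = 3), and the tight junction gene Cldn1 7.05 ± 0.175 and 7.01 ± 0.0514. Epcam, an epithelial adhesion molecule, had 14 ± 2.54 and 12.7 ± 0.288, and the cadherin Cdh3 7.74 in both. Of 12 epithelial transcription and splicing factors 5 were tested and none was called or had an unadjusted p under 0.05. Klf4 among them read 6392 ± 1149 and 5198 ± 1605, while Grhl2, Ehf and Esrp2 lay between 8.5 and 11.5 as means of these 2 groups. Of 18 tested mesenchymal genes, 2 rose and 0 fell with a median change of 0.01. These were Acta2, smooth muscle alpha-actin (2.08, limma adjusted p = 0.00337), and Itga5, a fibronectin receptor subunit (1.93, adjusted p = 0.00174), and both calls held in 9 of 9 fits with 1 array left out. Tnc, the matrix protein tenascin C (1.02, adjusted p = 0.133), and the surface protein Thy1 (0.42, adjusted p = 0.351) did not pass. With the replicate block both passed (limma adjusted p = 0.0333 and 0.0363). Among 9 tested mesenchymal transcription factors none was called, with 1 higher and 2 lower at an unadjusted p under 0.05, beside the 10.2% of all probe sets given above. Sox4 had 3145 ± 461 and 1904 ± 252 (−0.72, adjusted p = 0.116), and Foxc2 141 ± 22.6 and 87.5 ± 19.7 (−0.61, adjusted p = 0.204). With the replicate block Sox4 and Foxc2 were called lower (limma adjusted p = 0.00575 and 0.0274). Foxc1 had a change of 0.34 (adjusted p = 0.27) and Sox9 one of −0.21 (adjusted p = 0.699).

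In the other 2 comparisons limma called 1 gene of these lists, Itga5, which was higher with cytochalasin D than with both drugs by 1.34 (adjusted p = 0.031, and 0.058 with the replicate block). With 1 array left out this call held in 2 of 9 fits, those without control replicate 1 or 7, with an adjusted p from 0.023 to 0.152. With that block Jag1, a Notch ligand, was called as well, lower in the double-drug group than in control by a change of −0.18 (adjusted p = 1, and 0.0473 with the block) and higher with cytochalasin D than with both drugs by 0.38 (0.905, and 0.0133 with the block). Sox4 was lower in the double-drug group than in control by a change of −0.47 (adjusted p = 0.76), and with the block its adjusted p rounds to 0.05 and was just under the threshold. At an unadjusted p under 0.05, the double-drug group against control had 3 higher and 0 lower among the upstream signals, 0 and 1 among corepressors and partners, 0 and 1 among other mesenchymal factors, and 2 and 0 among mesenchymal genes. Cytochalasin D against the double-drug group had 2 and 1, 1 and 1, 1 and 0, and 4 and 0 in these lists, and the remaining lists had 0 in both comparisons. Over all probe sets tested the shares at that threshold were 5.28% and 4.22% in these 2 comparisons.

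**Figure D4:**
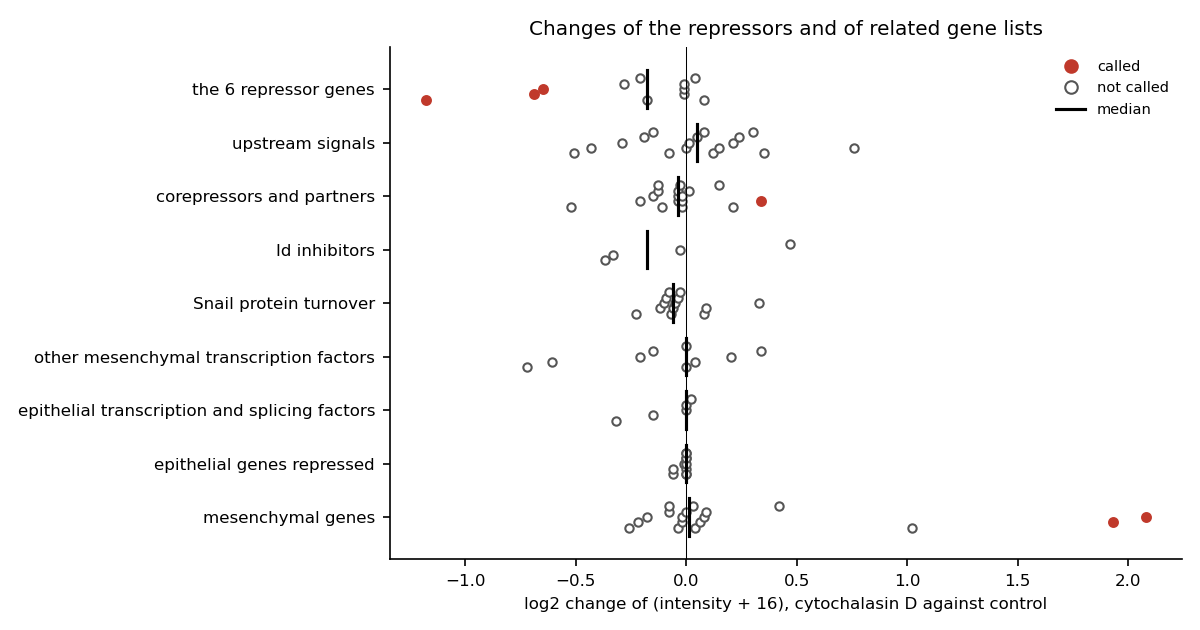
log2 change of (intensity + 16), cytochalasin D against control, for the 11 tested probe sets of the 6 repressor genes and for 1 probe set per gene of 8 related lists. Filled points passed the test and vertical bars are medians. The lowest point of the plot is Snai1 at −1.18, and the highest points are Acta2 and Itga5 at 2.08 and 1.93.

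The genes with the profiles most like those of the Snail genes were found by the root mean square difference of log2 values, each centred on its mean over the 9 arrays, among 11844 genes. For Snai1, whose own values had a root mean square of 0.53, they were Zfp472, Zfp53 and Six4, at differences of 0.18, 0.22 and 0.24, beside a median of 0.53 over all genes. Zfp472 had means of 244 ± 20.4, 119 ± 15.3 and 192 ± 27 in the control, cytochalasin D and double-drug groups (SD, n = 3). Zfp53 had 688 ± 49.5, 356 ± 23 and 516 ± 46.9, and Six4, a homeobox factor, 355 ± 59.6, 176 ± 22.9 and 232 ± 62.8. For Snai2 (1447643_x_at, root mean square 0.29) they were Tspyl4, Mrpl41 and Apcdd1, at differences of 0.08, 0.09 and 0.09, beside a median of 0.29. Mrpl41, a protein of the mitochondrial ribosome, had 1549 ± 152, 1119 ± 50.9 and 1248 ± 114, and Tspyl4 531 ± 64.6, 377 ± 8.92 and 394 ± 30.1. Apcdd1, a membrane inhibitor of Wnt signalling, had 2798 ± 269, 1947 ± 158 and 2222 ± 65.4. Since these genes were picked for their likeness on the same arrays, the values are a description.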

How the data were processed

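RNA of 9 cultures was hybridised to Affymetrix arrays, 3 per group. The files hold linear intensities as deposited, which the authors had already normalized, with a single value for a probe set on an array. MAS5 and GCRMA are named, per the submitters' processing notes, without versions and without a statement of which made these values. Symbols came from the platform annotation, updated through gene identifiers with a RefSeq table of assembly GRCm38.p6. Of 45101 probe sets, 64 controls were left out of the tests. Of the rest, those above the 40th percentile of their array on at least 3 arrays, 27010, were tested as log2(intensity + 16) with limma 3.58.1 in R 4.3.3 (lmFit with 1 coefficient per group on all 9 arrays, eBayes with its default prior). All p-values are two-sided and were adjusted by Benjamini-Hochberg over every probe set tested in that comparison, and a probe set is called at an adjusted p under 0.05. The fit was tested on simulated data. The number of arrays limits the precision.

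Each of the 36 pairs of arrays was compared, and 0 were identical. Replicate numbers recur in all groups. Deviations of arrays of the same number from their group means correlated at 0.83, 0.41 and 0.66 between control and the double-drug group, and at 0.73, 0.41 and 0.76 between both drug groups, over the probe sets tested, so these numbers were taken to pair the samples, and the fit with the number as a block is given beside those results where it changes them. Between control and cytochalasin D they correlated at 0.71, 0.08 and 0.65, and there the block is given as an alternative only.

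The 6 genes and the lists were chosen with earlier results of these data known. Named genes are all probe sets of the 6, up to 4 genes per list with the smallest adjusted p in any comparison, the 3 genes with the most similar profile for each of the 6 that was called, and Srf and Acta2 as a check; Jag1 was named after its values were seen, because the block alone called it. A listed gene is represented by whichever of its tested probe sets was brightest on average. Alternatives were other pseudocounts, filters and normalizations, other eBayes priors, the replicate block, the 2 groups alone, and each array left out.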

Additional observations from a re-analysis of the deposited data

How the results depend on the processing

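Of 324 values of the 11 probe sets under other settings, 319 kept their direction and their side of the threshold, 4 lost a call and 1 turned sign. With 1 array left out, 269 of 297 did so, 13 lost a call and 15 turned sign. The lost calls are given beside Snai1 and Snai2, and the cause was not tested. With only the 2 groups compared, which leaves fewer arrays to estimate the spread, 0 of the repressor probe sets were called for cytochalasin D against control, and all calls went from 423 to 159, from 30 to 1 for the double-drug group against control, and from 70 to 9 for cytochalasin D against the double-drug group. Without a filter, which tests more probe sets, the last of these had 16. For the double-drug group against control the count was 14 at a pseudocount of 64, 8 without a filter, 74 with a filter at the 60th percentile, 15 after quantile normalization, 62 after median centring and 48 with an intensity trend. The replicate block gave 1044 calls for cytochalasin D against control, of which 418 were lower, and 123 for the double-drug group against control. For cytochalasin D against the double-drug group it called 84 higher and 15 lower. The block changed no call among the 11 probe sets of the 6 genes. In the lists, for cytochalasin D against control, it added Jag1, Hif1a, Foxc2, Sox4, Thy1 and Tnc (limma adjusted p = 0.00875, 0.0328, 0.0274, 0.00575, 0.0363 and 0.0333); replicate 3 correlated at only 0.08 between these groups. Leaving out 1 array gave 231 to 487, 0 to 42 and 3 to 59 calls in the 3 comparisons, and 0 to 3, 0 to 0 and 0 to 0 among the repressor probe sets. The lowest counts came without cytochalasin D replicate 3 in the first comparison and without double-drug replicate 3 in the others, with double-drug replicate 7 also at 0 in the second. Of the 6 genes, only probe sets of Zeb1, Zeb2 and Twist2 turned sign, none of them called. For cytochalasin D against control these were Zeb1 1443005_at (0 after quantile normalization, and −0.01 to 0 with 1 array left out) and Zeb2 1422748_at (−0.12 to 0.09). For the double-drug group against control they were Zeb1 1446127_at (−0.01 to 0.02), Zeb1 1443005_at (−0.05 to 0), Zeb2 1434298_at (−0.1 to 0.01) and Zeb2 1456389_at (−0.32 to 0.04). For cytochalasin D against the double-drug group they were Zeb1 1418926_at (−0.1 to 0.01), Zeb1 1443005_at (−0.01 to 0.04), Zeb2 1434298_at (−0.31 to 0.03), Zeb2 1456389_at (−0.25 to 0.12) and Twist2 1448925_at (−0.08 to 0.04). The same settings, applied to Prmt5, Itga5, Acta2 and Srf after seeing the data, kept the calls of Itga5, Acta2 and Srf for cytochalasin D against control in 10 of 10 settings other than leaving out an array, those of Prmt5 and of Srf with both drugs in 6 of 10, and that of Itga5 against the double-drug group in 7 of 10. Signal over background limits the dim Zeb1 probe sets, which lay near an intensity of 10.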
